A study of Mus musculus with 18 samples.

Results

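Long noncoding RNAs whose symbol has the form Gm and a number were examined in mouse testis. The prefix Gm marks a predicted gene that has no descriptive name. The set held every annotated transcript of the deposited noncoding table with such a symbol, provided that the symbol did not also occur in the deposited table of mRNA genes. It came to 10072 of the 33433 rows of the noncoding table, under 7472 symbols. The rule itself uses names only. The libraries were made from whole testis of C57BL/6 mice, 3 with the wild-type Taf7l gene and 3 with a knock-in allele of it, spelled "Taf7l konckin (TKI)" in the labels. The mice were adult and the series title speaks of a missense mutation, but the labels do not name the edited codon. Nothing states whether each library is from its own animal. The p-values therefore describe the scatter of these 6 libraries, which may be technical in part. The series' purified germ cells (pachytene spermatocytes, round spermatids) were not analysed here.

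A long noncoding RNA is a transcript longer than the small RNA classes with no known protein product, and some act on neighbouring genes or as scaffolds while most have no known role. The testis transcribes more of them than most other tissues, largely in meiotic and haploid germ cells. Taf7l lies on the X chromosome, and its protein takes the place of Taf7 in germ cells, within the TFIID complex that brings RNA polymerase II to promoters. The question of the comparison is which noncoding transcripts of the testis differ with the Taf7l allele.

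Start-site regions, 250 bases before to 50 bases after a gene's start, were taken from RefSeq on GRCm38.p6, the same assembly as the mm10 build of the study, and are printed 5′ to 3′ on the gene's strand. Such a region was found for 2126 of the member symbols. The regions printed below belong to 4 of the member symbols described in the results, and other described members with a region are not printed. Gm15756 (chr6:90599891-90600190, minus strand) passed DESeq2 with a higher level in the knock-in, but did not pass edgeR (adjusted p = 0.106). Gm2762 (chr13:53393439-53393738, plus strand) is the symbol with the most tested transcripts. Gm7972 (chr9:75468323-75468622, plus strand) and Gm13112 (chr4:154871954-154872253, minus strand) each had a transcript that was lower in every knock-in library. Neither of these last passed edgeR or DESeq2. Capitals mark matches, on either strand, to TGACGTCA (the cAMP response element), GGGCGG (the GC box), TATAAA (the TATA box), CAGTTG (a MYB core, which is also a form of the E-box CANNTG) or GTTGCC (part of the X-box of RFX factors).
Gm15756: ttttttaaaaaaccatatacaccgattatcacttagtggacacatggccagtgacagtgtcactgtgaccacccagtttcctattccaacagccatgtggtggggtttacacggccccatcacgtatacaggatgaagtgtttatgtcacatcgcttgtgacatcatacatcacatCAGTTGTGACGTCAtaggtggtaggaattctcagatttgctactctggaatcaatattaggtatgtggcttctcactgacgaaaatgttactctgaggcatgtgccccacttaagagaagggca
Gm2762: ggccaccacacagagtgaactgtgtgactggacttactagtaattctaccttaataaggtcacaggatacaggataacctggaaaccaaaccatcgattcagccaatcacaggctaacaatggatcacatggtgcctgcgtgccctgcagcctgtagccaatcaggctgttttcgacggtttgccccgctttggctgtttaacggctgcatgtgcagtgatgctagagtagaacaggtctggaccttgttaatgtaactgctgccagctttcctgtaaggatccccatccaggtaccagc
Gm7972: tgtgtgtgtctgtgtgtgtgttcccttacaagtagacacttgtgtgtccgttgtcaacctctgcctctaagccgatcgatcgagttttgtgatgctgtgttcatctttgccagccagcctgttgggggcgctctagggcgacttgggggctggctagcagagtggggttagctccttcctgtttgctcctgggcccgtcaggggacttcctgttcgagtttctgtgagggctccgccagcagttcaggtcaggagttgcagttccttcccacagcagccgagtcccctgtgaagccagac
Gm13112: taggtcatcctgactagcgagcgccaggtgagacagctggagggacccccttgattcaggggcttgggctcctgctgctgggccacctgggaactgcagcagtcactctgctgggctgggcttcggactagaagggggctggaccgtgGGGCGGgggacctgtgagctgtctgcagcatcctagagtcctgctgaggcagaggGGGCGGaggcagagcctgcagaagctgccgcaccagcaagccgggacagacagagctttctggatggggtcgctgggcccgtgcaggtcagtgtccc
In the region of Gm15756 the palindrome TGACGTCA began 68 bases before the start, directly after a CAGTTG that began 74 bases before it. That of Gm13112 held 2 copies of GGGCGG, at 102 and 47 bases before the start. The regions of Gm2762 and Gm7972 held none of the 5 motifs. A match describes the letters only.

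Over all 2796 regions of member symbols the median GC content was 48.3% and the median number of CG steps was 4, against 57.0% and 14 for the regions of coding genes. GGGCGG stood in 15.8% of member regions, in 47.6% of those of coding genes and in 35.7% of all 32851 regions. TGACGTCA stood in 1.14%, 2.30% and 1.79% of them, TATAAA in 15.5%, 12.3% and 13.6%, CAGTTG in 15.1%, 12.3% and 13.7%, and GTTGCC in 11.8%, 12.4% and 12.5%. GC boxes and CG steps were thus less frequent near member starts than near those of coding genes. Among the 28 symbols with a region and a transcript at a mean of 10 FPKM or more, 10 had a CAGTTG in at least 1 region (35.7%), against 17.3% of all member symbols and 15.4% of all symbols. The same 28 symbols held TATAAA in 28.6%, against 18.5% of all member symbols and 15.7% of all symbols. For GGGCGG the shares were 28.6%, 18.3% and 38.2%, in the same order. For TGACGTCA they were 3.57%, 1.32% and 2.03%, and for GTTGCC 10.7%, 14.6% and 14.1%. These 28 symbols are too few for more than a description.

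The noncoding table summed to between 1384224 and 1647421 counts a library, and the mRNA table to between 17431309 and 21446420. Counts of Taf7l were 507, 551 and 531 in wild-type testis, against 472, 525 and 581 in knock-in testis, which cannot check the genotype labels, because a count does not reveal the edited base. Defining markers of the testis were present, with summed levels over 7 spermatocyte markers of 3115 to 3232 FPKM (fragments per kilobase of transcript, scaled to library size) in wild-type testis, against 2833 to 3095 in knock-in testis, ranges that do not overlap, although none of the 7 was called. The median log2 fold change of these 7 was only -0.02. The part of these markers in the results on members was not tested. Of 5 epididymis markers, Lcn5 and Lcn8 were at 0 in all libraries and 3 were above 0. Their sum was 3.94 to 11.74 FPKM in wild-type testis, against 2.85 to 8.89 in knock-in testis. Only 1 of the 5 was tested, with a log2 fold change of -0.51, and it was not called. Summed levels of 7 elongating spermatid markers overlapped between the genotypes, from 11734 to 13846 FPKM in wild-type testis, against from 11841 to 14210 in knock-in testis, and 2 of the 7 were called higher, where edgeR called 0.982% of all mRNA genes tested. The median log2 fold change of these last 7 was 0.39. For the other testis cell types and erythrocytes, medians ran from -0.06 (round spermatids) to 0.39 (erythrocytes), and none of their markers was called. In whole tissue, fewer cells of a type and less RNA per cell cannot be told apart.

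Most members were scarce. Of the 10072 transcripts, 4345 had no count in any library and 2440 had counts in each of the 6. No count in a library leaves room for up to 3 counts, which is 1.82 to 2.17 counts on the CPM scale of the noncoding table. Between 3835 and 3951 members were detected per library. A mean of 0.1 FPKM was reached by 2843 members, 1 FPKM by 764, 10 FPKM by 90 and 100 FPKM by 5. The 10 most counted members held 26.5% of all member counts and the 100 most counted held 59.7%. The low-count filter, a minimum count of 10, left 1544 members (15.3%), which held 95.4% of the counts. The filter kept 36.1% of RIKEN-named transcripts and 27.8% of all rows. Since it keeps transcripts that are high in either genotype, these 1544 are not a sample of all members.

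Together the members took 12.8%, 12.9% and 13.1% of the noncoding counts in the wild-type libraries while the knock-in libraries gave 12.9%, 12.9% and 12.6%. The genotypes overlapped. The mean was 12.96% ± 0.164 (SD, n = 3) for wild type and 12.8% ± 0.151 for knock-in, and the difference of -0.166 percentage points did not pass (exact permutation test over libraries, two-sided, p = 0.4, where the smallest possible is 0.1).

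RefSeq lists a gene for 2916 of the 7472 symbols, and for 2662 of these the gene is a noncoding RNA gene. It lists 132 as pseudogenes, 50 as transcribed pseudogenes and 62 as protein-coding genes, so the table's noncoding label and RefSeq differ for these. A pseudogene resembles its parent gene, and how reads shared with near-identical copies were counted is not given in the sources used here, so their single values are uncertain. Tested members listed as noncoding RNA genes (749 transcripts) had a median level of 0.945 FPKM and pseudogenes (44) one of 1.30 FPKM. Median log2 fold changes of knock-in over wild type were 0.01 and -0.01. An unadjusted p under 0.05 was reached by 9 of the 44 pseudogene transcripts (20.5%) and by 44 of the 749 noncoding ones (5.87%), where the share of all noncoding-table transcripts was 8.97%. The genotypes did not overlap in 11 (25%) and 97 (12.95%) of them, where the share of all was 16.0%. The difference between these classes was not tested.

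Pseudogenes and genes that RefSeq calls coding stood among the most abundant members. The highest level was that of Gm10275 (ENSMUST00000092620), a pseudogene at chr10:29698746-29699379. It had 169.70, 170.79 and 168.08 FPKM in wild-type testis, against 196.16, 198.69 and 205.25 FPKM in knock-in testis. The knock-in libraries were all higher, with a log2 fold change of 0.26 ± 0.05 (SE), which did not pass (edgeR, adjusted p = 0.137). Gm15500, a pseudogene at chr7:114705216-114706234, had 85.72, 91.52 and 80.73 FPKM in wild-type testis, against 92.97, 100.69 and 108.09 FPKM in knock-in testis. The knock-in libraries were again all higher, by 0.25 ± 0.08 on the log2 scale (edgeR, adjusted p = 0.410). Gm28967, with no RefSeq gene, had 68.17, 63.03 and 53.81 FPKM against 70.95, 85.65 and 84.56, a log2 fold change of 0.40 ± 0.13 that did not pass either. The third pseudogene of the group, Gm10177 at chr9:37252915-37253341, had 60.79, 70.83 and 72.37 FPKM in wild-type testis, against 69.67, 62.47 and 64.04 in knock-in testis, and there the genotypes overlapped.

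In the other 6 of the 10 most abundant members the genotypes overlapped too. Gm45090 stood at 134 ± 13.6 FPKM (SD, n = 3) in wild type and at 134 ± 9.47 FPKM in knock-in libraries. Gm11837, which RefSeq lists as coding at chr4:14929828-14953031, stood at 133 ± 3.01 and 125 ± 11.6 FPKM. Its gene body overlaps that of Necab1, a gene for a neuronal calcium-binding protein, which had a mean of only 0.05 FPKM here. Gm48765 stood at 108 ± 14.7 and 92.1 ± 12.8 FPKM, and Gm20621 and Gm48105 at 88.8 ± 6.62 and 74.8 ± 4.41 FPKM in the wild type, with 86.6 ± 4.89 and 69.1 ± 7.74 in the knock-in. The 95% intervals of the log2 fold change were from -0.17 to 0.20 for Gm45090, from -0.23 to 0.11 for Gm11837 and from -0.48 to 0.06 for Gm48765. Neighbours in the order from Gm45090 to Gm11837 did not differ beyond their spread.

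**Figure D1:**
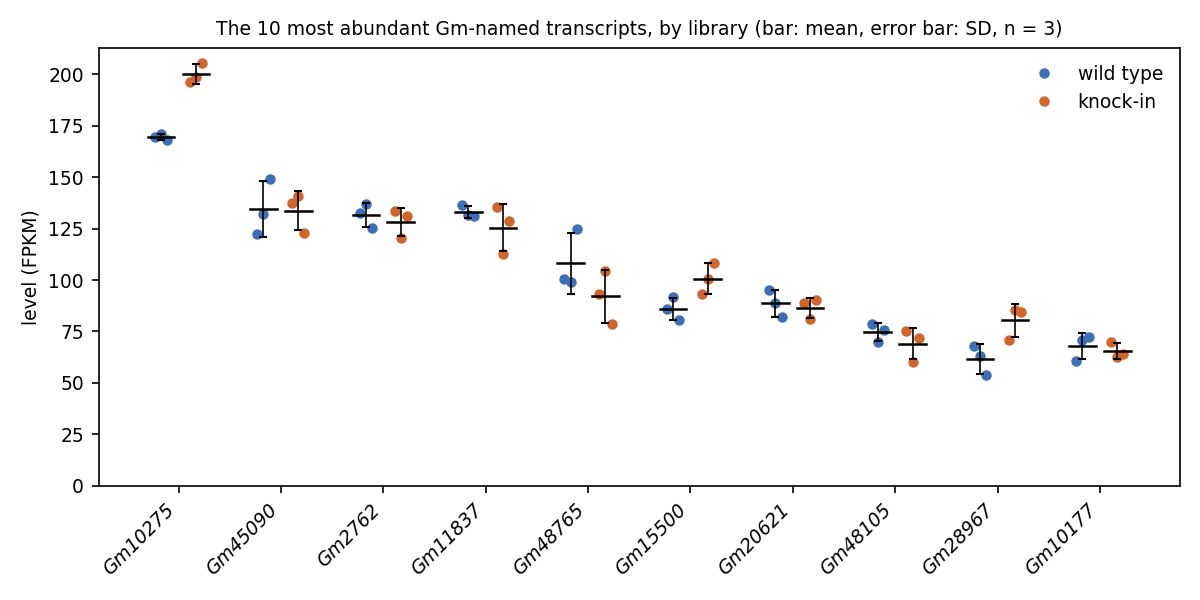
Level in FPKM (linear axis from 0) of the 10 most abundant members in each of the 3 wild-type and 3 knock-in libraries, with the mean as a bar and the SD as an error bar. The knock-in points lie above all wild-type points for Gm10275, Gm15500 and Gm28967, and overlap with them in the other 7.

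Gm2762 (RefSeq noncoding RNA gene, chr13:53393689-53455630) was the symbol with the most tested transcripts, 7. Its main transcript ENSMUST00000201658 had 132.51, 137.01 and 125.47 FPKM in wild-type testis, against 133.50, 120.64 and 130.97 in knock-in testis, a log2 fold change of -0.02 ± 0.06 (SE). The second, ENSMUST00000202739, had 29.9 ± 0.824 FPKM in wild-type testis, against 27.8 ± 1.56 in knock-in testis (SD, n = 3 each). The other 5 had means of 4.48 to 10.3 FPKM. Log2 fold changes of the 7 ran from -0.30 to 0.35, none passed, and the genotypes overlapped in each. The gene lies 11.3 kb from Msx2, a homeobox gene, which had a mean of 0.02 FPKM.

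None of the 1544 tested members was called changed by edgeR at an adjusted p under 0.05, where 0.0968% of the 9301 transcripts in the noncoding fit were called (0.0538% with a higher and 0.0430% with a lower level in the knock-in). Against so low a share the count of 0 does not set the members apart. An unadjusted p under 0.05 was reached by 89 members (5.76%), 43 higher and 46 lower in the knock-in, against 8.97% of all noncoding transcripts. The smallest adjusted p of a member was 0.106. DESeq2 called 5 of the 1544 tested members, 4 higher and 1 lower, where it called 110 of all 9301 transcripts (1.18%). The authors' deposited table lists 5 of the 10072 members at an adjusted p under 0.05, where it lists 114 of all 33433 rows (0.341%). Of these 5 members, 4 are also among those that passed DESeq2. The median log2 fold change of the members was -0.01, beside 0.00 for all noncoding transcripts, and 750 members lay above 0 and 794 below. A 2-fold difference was fitted for 45 members (2.91%), 22 higher and 23 lower, against 5.25% of all. That share was 3.79% for RIKEN-named transcripts, 9.60% for transcripts that share a symbol with an mRNA gene and 3.32% for the other noncoding rows. The middle 90% of members lay between -0.61 and 0.65.

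The genotypes did not overlap in 208 members (13.5%), 102 higher and 106 lower in the knock-in, where the share among all noncoding transcripts was 16.0%, with 8.33% higher and 7.62% lower. The common biological coefficient of variation, the spread between libraries beyond counting, was 18.7% for members, 19.4% for RIKEN-named transcripts and 39.7% for transcripts that share a symbol with an mRNA gene. Precision followed depth: among the 396 tested members with the lowest counts (7.17 to 15.3 per library) the median SE was 0.49, and among the 386 with the highest (68.7 or more) it was 0.15. Of the 45 members with a 2-fold difference, 27 lay in the first of these groups and 5 in the last.

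**Figure D2:**
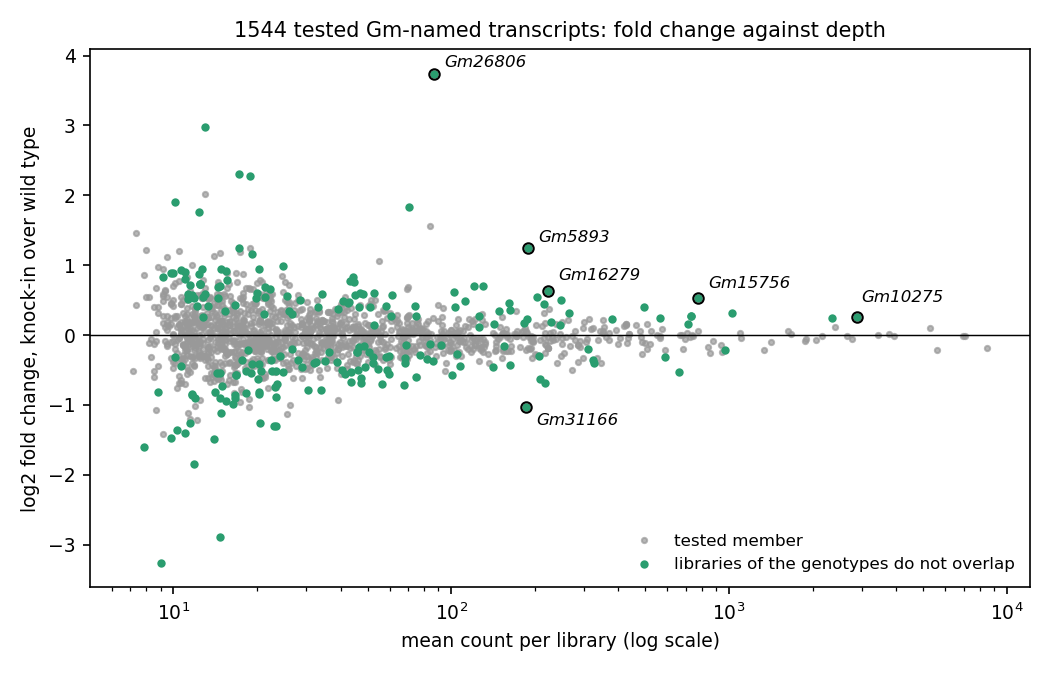
Log2 fold change of knock-in over wild type against the mean count per library (log axis) for the 1544 tested members. Members whose genotypes do not overlap are green and 6 members described in the text are circled, and the spread of fold changes narrows as counts increase, from a median SE of 0.49 among the 396 members with the lowest counts to 0.15 among the 386 with the highest.

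The members that passed DESeq2 are described one by one. Gm15756 and Gm16279 fell outside the rule by which members were named and were chosen after their values were seen. Gm15756 (ENSMUST00000161447, RefSeq noncoding RNA gene at chr6:90596685-90599940) is the member whose start-site region with TGACGTCA is printed above. It had 693, 598 and 545 counts in wild-type testis, against 892, 847 and 1076 in knock-in testis, or 38.7 ± 3.46 FPKM against 55.0 ± 3.10 (SD, n = 3 each). The knock-in libraries were all higher, with a log2 fold change of 0.53 ± 0.09 (SE; DESeq2, adjusted p = 0.000888; edgeR, adjusted p = 0.106). Its gene body overlaps that of Aldh1l1, which encodes a folate enzyme, and the coding gene had a log2 fold change of 0.05 ± 0.10.

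Gm16279 (ENSMUST00000149452, RefSeq noncoding RNA gene at chr17:35909735-35910520) had 185, 164 and 156 counts in wild-type testis, against 280, 240 and 313 in knock-in testis, or 2.43 ± 0.142 FPKM against 3.71 ± 0.329. The genotypes did not overlap, and the log2 fold change was 0.63 ± 0.12 (DESeq2, adjusted p = 0.0285; edgeR, adjusted p = 0.118). The implied length of this transcript was 3529 bases, while the RefSeq gene of that symbol spans 786, so the gene's position may not be that of the whole transcript. That gene overlaps Atat1, the tubulin acetyltransferase gene, whose log2 fold change was 0.24 ± 0.09 (edgeR, adjusted p = 0.297). Whether the counting used strand is not given in the sources used here, so reads of such overlapping pairs cannot be told apart. Gm10275, described above, was the third of those higher in the knock-in (DESeq2, adjusted p = 0.00837).

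Gm5893, a transcribed pseudogene at chr7:24818795-24840275, had 2 tested transcripts. ENSMUST00000164057 had 100, 121 and 104 counts in wild-type testis, against 295, 325 and 185 in knock-in testis, or 2.36 ± 0.240 FPKM against 5.51 ± 1.83. Knock-in libraries 1 and 2 were the highest and knock-in library 3 lay between them and the wild type, with a log2 fold change of 1.24 ± 0.25 (DESeq2, adjusted p = 0.00123; edgeR, adjusted p = 0.137). The other transcript, ENSMUST00000135286, had 224, 272 and 292 counts in wild-type testis, against 267, 265 and 348 in knock-in testis, a log2 fold change of 0.06 ± 0.14. Without knock-in library 3 the first transcript was called by edgeR too (log2 fold change 1.49, adjusted p = 0.0167), as 1 of 2 members among the 0.140% of transcripts called in that fit. Leaving out the library nearest to the wild type widens the difference, so this call is no separate support. Without any other library its adjusted p by edgeR was 0.305 to 0.367.

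The other member called without knock-in library 3 was Gm31166 (ENSMUST00000210638), a pseudogene at chr19:5510782-5550374. It had 283, 235 and 211 counts in wild-type testis, against 94, 91 and 200 in knock-in testis, or 8.12 ± 0.962 FPKM against 3.90 ± 1.54. Knock-in libraries 1 and 2 were well below the wild type and knock-in library 3 stood nearest to it. The log2 fold change was -1.03 ± 0.26 (DESeq2, adjusted p = 0.0213; edgeR, adjusted p = 0.239), and -1.41 without knock-in library 3 (edgeR, adjusted p = 0.0344). It overlaps Ovol1, a gene for a zinc-finger transcription factor, whose log2 fold change was 0.09 ± 0.13. Without any other library the adjusted p of Gm31166 by edgeR was 0.374 to 0.473. In both Gm5893 and Gm31166 the same library thus stood nearest to the wild type, and leaving it out was bound to widen both differences.

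Of the 738 tested members with a mean of at least 30 counts, the genotypes did not overlap in 108 (14.6%), 54 higher and 54 lower, where the share of all such noncoding transcripts was 18.4%. Besides Gm5893 and Gm31166, described above, the members described next had the largest fitted differences in each direction among these 108. Gm26806 (ENSMUST00000180403) had 0, 0 and 33 counts in wild-type testis, against 94, 134 and 260 in knock-in testis. The second transcript of Gm26806 had 175, 207 and 116 counts in wild-type testis, against 164, 144 and 140 in knock-in testis. Summed over both, Gm26806 had 531 counts in wild-type testis, against 936 in knock-in testis. The first transcript did not pass with the filter (edgeR, adjusted p = 0.264; DESeq2, adjusted p = 1.00) and did without it (edgeR, adjusted p = 0.0154), as 1 of 6 members among the 0.565% of transcripts called then.

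Gm46620 had 51, 39 and 0 counts in wild-type testis, against 132, 116 and 85 in knock-in testis. Gm15441 (ENSMUST00000098839), known in liver as a transcript antisense to Txnip, had 20, 33 and 39 counts in wild-type testis, against 56, 63 and 56 in knock-in testis. The other tested transcript of Gm15441 had 31 counts in wild-type testis, against 36 in knock-in testis, a log2 fold change of 0.14 ± 0.67. Txnip, which encodes a thioredoxin-binding protein, had a log2 fold change of -0.25 ± 0.09 beside 0.84 ± 0.29 for the first Gm15441 transcript (edgeR, adjusted p = 0.277 and 0.429). Gm44992 (ENSMUST00000189000) had 31, 29 and 32 counts against 50, 59 and 58, while its other tested transcript had 153 counts in wild-type testis, against 162 in knock-in testis. None of these 3 passed edgeR or DESeq2.

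Among members that were lower in each knock-in library, Gm7972 (RefSeq coding gene, chr9:75468573-75486685) had 81, 99 and 67 counts in wild-type testis, against 40, 62 and 58 in knock-in testis, a log2 fold change of -0.71 ± 0.23 (edgeR, adjusted p = 0.392). Its coding neighbour Leo1, 2.14 kb away, encodes a subunit of the PAF1 complex, which travels with elongating RNA polymerase II. Leo1 rose from 242, 294 and 258 counts in the wild type to 367, 464 and 489 in the knock-in (log2 fold change 0.63 ± 0.11; edgeR, adjusted p = 0.0314 over all mRNA genes). The pair thus had fold changes of opposite sign, of which only that of Leo1 passed.

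Gm13112 (ENSMUST00000151696) had 36, 38 and 39 counts in wild-type testis, against 21, 17 and 32 in knock-in testis, and its other tested transcript had 154 and 170 counts in all. Gm35550 (ENSMUST00000233760) had 51, 83 and 70 counts against 44, 34 and 56, and its other tested transcript 205 and 223 in all. These second transcripts had log2 fold changes of 0.04 for Gm13112 and 0.03 for Gm35550. Gm26672 (ENSMUST00000180922) had 45, 43 and 39 counts in wild-type testis, against 34, 24 and 19 in knock-in testis. Fitted log2 fold changes were -0.79 for Gm13112, -0.70 for Gm35550 and -0.79 for Gm26672, with adjusted p from 0.429 to 0.476 by edgeR.

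**Figure D3:**
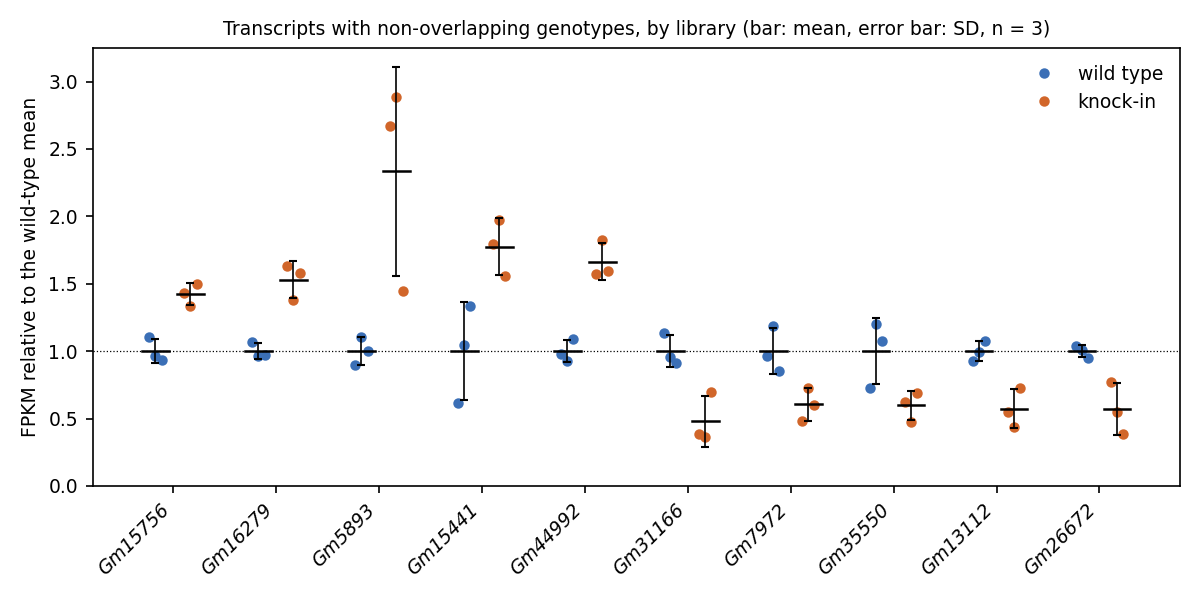
FPKM relative to the wild-type mean (linear axis from 0, dotted line at the wild-type mean) in each library for 10 members whose genotypes did not overlap, with the mean as a bar and the SD over 3 libraries as an error bar. The lowest knock-in point of Gm5893 and the highest of Gm31166 are both knock-in library 3.

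More than 1 transcript was tested for 145 symbols, 338 transcripts in all. In 82 of these symbols the fold changes of the transcripts had both signs, and the median gap between the highest and the lowest was 0.43 on the log2 scale. Since 750 tested members lay above 0 and 794 below, both signs would be frequent among unrelated transcripts too. No share for other noncoding symbols was taken, so the 82 are a description only. Transcripts of a symbol share sequence, so their counts depend on how reads were divided among them. Gm39327 is an example among untested members. Its transcript ENSMUST00000215874 had no counts in wild-type testis, against 8, 13 and 14 in knock-in testis, and it is the fifth member in the authors' deposited table (adjusted p = 0.0290). The other transcript of Gm39327 had 46, 43 and 31 counts in wild-type testis, against 27, 36 and 20 in knock-in testis, and the sum over both was 120 and 118. In all, 52 members were at 0 in each library of one genotype and above 0 in each of the other, 27 of them seen in the knock-in and 25 in the wild type. They were 0.516% of all members, where 0.637% of all noncoding rows had this pattern. Of those with a count in any library, the shares were close, at 0.908% of members and 0.933% of noncoding rows. Their median total was 6 counts, and none of them passed the filter.

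Some members had the same counts as another. In 9 groups of members with at least 60 counts, 19 transcripts in all, the counts were identical in every library. The group with the most counts was Gm3892 and Gm10593, each with 667, 645 and 604 counts in wild-type testis, against 783, 767 and 919 in knock-in testis (log2 fold change 0.28). Gm26630, Gm26680 and Gm48105 shared another set of counts, 1335 in all, on transcripts other than the abundant Gm48105 transcript above.

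Of 4375 transcripts whose symbol has a RefSeq position, 850 were tested (19.4%). On the X chromosome 3 of 62 were tested (4.84%) and on the Y chromosome 4 of 38 (10.5%). The 3 on the X were 2 transcripts of Gm15104 (chrX:150311924-150336719), which RefSeq lists as coding, and Gm14773 (chrX:91155168-91155791). The main transcript of Gm15104 had 44.46, 45.29 and 40.80 FPKM in wild-type testis, against 42.86, 35.07 and 37.05 in knock-in testis, and the genotypes overlapped. Its lesser transcript had 5.95, 4.82 and 5.11 FPKM against 3.39, 2.28 and 4.17, and Gm14773 had 8.59, 8.36 and 8.55 against 11.91, 12.71 and 10.55. These last 2 did not overlap between the genotypes and went in opposite directions, and neither passed (edgeR, adjusted p = 0.511 and 0.336). Median log2 fold changes per autosome ran from -0.08 to 0.11.

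Coding neighbours were compared next. The gene body of 276 positioned members (32.5%) overlapped that of a coding gene, 142 lay within 10000 bases of one and 432 lay farther away. Across member and neighbour pairs with both fitted, which share libraries, Pearson's r of the log2 fold changes was -0.01 for 259 overlapping pairs, -0.05 for 115 near pairs and 0.01 for 343 farther pairs. These are descriptions across genes, which are not independent replicates. In the mRNA fit, where 0.982% of genes were called, 0 of the 259 overlapping, 3 of the 115 near and 4 of the 343 farther pairs had a called neighbour. The near ones were Leo1 beside Gm7972, Ift43 beside Gm805 and Prr27 beside Gm7337.

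Fold changes were also set against length. Among the shortest 386 tested members the median log2 fold change was 0.05, with 21 higher and 9 lower at an unadjusted p under 0.05. In the next 3 groups of 386, from shorter to longer, the medians were -0.01, -0.06 and -0.02, with 6, 10 and 6 higher and 15, 9 and 13 lower. Over noncoding transcripts of all lengths, 447 were higher and 387 lower at this threshold, 8.97% of the 9301 tested. No counts by length were taken for them, so a pattern of members cannot be told from one of all noncoding transcripts. Gm28967 was the shortest of the abundant members, with an implied length of 337 bases, and Gm10275 had 762. With a correction for each library's trend with length, the log2 fold change of Gm28967 went from 0.40 to 0.26, that of Gm10275 from 0.26 to 0.23 and that of Gm15756 from 0.53 to 0.50, and 0 members were called. The difference between length groups was not tested.

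**Figure D4:**
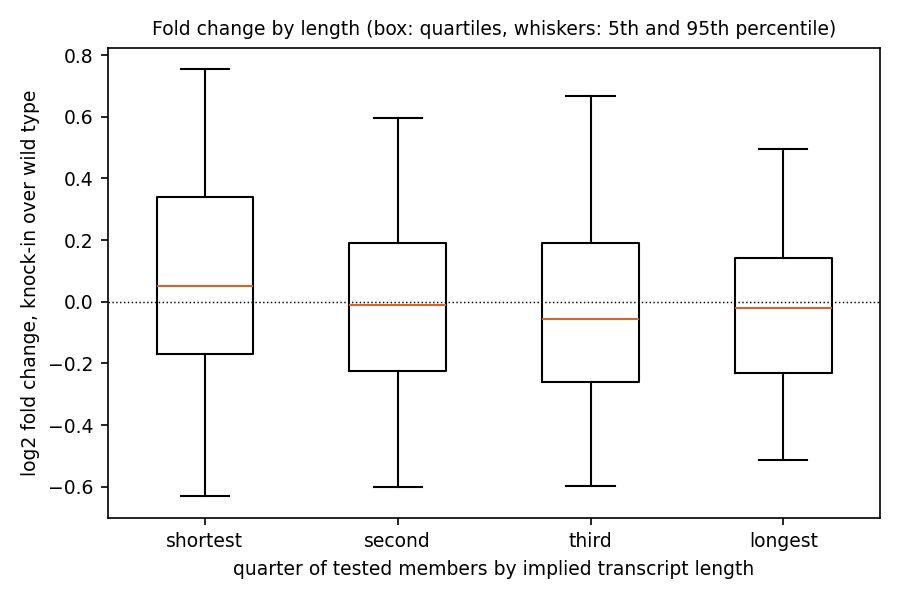
Log2 fold change of knock-in over wild type in 4 groups of 386 tested members ordered by implied transcript length, with boxes at the quartiles, the median as a coloured line and whiskers at the 5th and 95th percentile. The median of the shortest group, 0.05, lies above 0 and those of the others lie below.

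Gm2044, a transcript described in mouse spermatocytes, was the one member found of 3 listed by symbol. It had 69, 103 and 70 counts in wild-type testis, against 74, 98 and 69 in knock-in testis, or 3.75 ± 0.858 FPKM against 3.50 ± 0.842 (SD, n = 3 each), and the genotypes overlapped. The fitted log2 fold change of -0.08 had a 95% interval of -0.64 to 0.48.

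Circular RNAs, closed by joining a downstream to an upstream splice site, were named after 99 member genes. The deposited table of circles held 151 of them among 7391. Their counts summed to 280, 236 and 252 in the wild-type libraries and 228, 257 and 314 in the knock-in libraries, so the genotypes overlapped. The most counted was a circle of Gm11520 (chr11:95319177-95332369, exons and introns) with 60, 64 and 61 counts in wild-type testis, against 38, 52 and 74 in knock-in testis. It was followed by circles of Gm47977 with 135 counts and of Gm45086 with 132 over the 6 libraries. The median circle had 5 counts, which leaves no room to compare single circles.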

How the data were processed

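Per the labels' protocols, Trizol RNA of flash-frozen testis went into TruSeq Stranded Total RNA libraries. The authors deposited whole-number counts per feature and library, with FPKM for mRNA genes and noncoding transcripts and RPM for circular RNAs. The authors' deposited tables also give a mean per genotype (FPKM, or a signal for circles), a log2 ratio and p-values before and after adjustment. The submitters' processing notes name mm10. Which aligner, counter and annotation served is not given in the sources used here.

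A test of the noncoding counts used edgeR 4.0.16 (quasi-likelihood, TMM, R 4.3.3), two-sided, 3 libraries against 3, with filterByExpr (minimum count 10, minimum total 15) and Benjamini-Hochberg adjustment over the 9301 transcripts kept. DESeq2 1.42.0 and limma 3.58.1 served as alternatives. SE was derived from the F statistic. Implied length came from counts and FPKM with the summed counts of both linear tables as library total, so it is relative and runs high (762 bases for Gm10275). The procedure was tested on simulated data. Libraries of one genotype differed beyond sampling noise (chi-square per degree of freedom of noncoding counts 4.18 to 5.08). Positions, gene types and start-site regions are those of RefSeq for the symbol, not of the single transcript.

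The members and lists were chosen with earlier results of these data known. Named members followed a rule: those called, the 10 highest by FPKM, the 5 largest differences each way among non-overlapping members with a mean count of at least 30, 3 listed symbols, the 3 highest on the X chromosome and the symbol with the most tested transcripts. Gm15756, Gm16279 and Gm39327 were added after their values were seen, as were the coding neighbours called, the identical sets and the circles.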

Additional observations from a re-analysis of the deposited data

How the results depend on the processing

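With 3 libraries a genotype and few counts, most members could show only large differences. The number of members called, 0, was 5 by DESeq2, 6 without a filter on low counts and 2 without knock-in library 3. It was 0 with library totals, mRNA library sizes, the stricter filter, limma, the length correction and the replicate block. The number of noncoding transcripts called, 9, became 110 by DESeq2, 129 without a filter, 17 with the stricter filter (minimum count 30), 23 with limma on log2(FPKM + 0.1), and 2 with the replicate block, with or without the length correction. The cause of these differences was not tested. Leaving out 1 library gave 6 to 13 transcripts and 0 to 2 members. The replicate numbers did not pair the libraries (correlation of deviations -0.00, 0.01 and -0.02). The median log2 fold change of the members, -0.01, was -0.0394 without a filter and ran from -0.0270 to 0.00581 without 1 library. The difference in the share of counts ran from -0.234 to -0.0750 percentage points without 1 library and was negative in the other alternatives too. The planned fit without Gm26917 and Gm42418 was not run, since they are not among the members. Of 32 named transcripts tested, only Gm45090 (0.01) turned sign outside the fits without 1 library, at -0.00548 with limma, -0.0146 with the length correction and -0.0121 with that correction and the replicate block. Without 1 library, log2 fold changes that turned sign ranged from -0.0489 to 0.0869 for Gm45090, from -0.108 to 0.00678 for Gm11837, from -0.0748 to 0.0397 for Gm20621, from -0.108 to 0.00517 for Gm10177, from -0.282 to 0.130 for Gm2044, and for Gm2762 from -0.0557 to 0.0243 (ENSMUST00000201658), from -0.557 to 0.0118 (ENSMUST00000201815) and from -0.590 to 0.0977 (ENSMUST00000202502).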
